A study of Mus musculus with 6 samples.

Results

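mmu-miR-196a-5p, mmu-miR-196b-5p and mmu-miR-615-3p are the abundant mature miRNAs of 4 hairpins that lie inside the Hox gene clusters: Mir196a-1, Mir196a-2, Mir196b and Mir615. They were taken from the deposited miRNA table by their names, which gave 3 mature miRNAs of 1034 and 4 rows of 1104, because miR-196a-5p has a row for each of its 2 genes. All 3 passed the filter of a mean of 1 TPM or more (the deposited unit, a length-scaled read share that sums to 1000000 in each library), as did 670 miRNAs in all. The samples were nephron progenitors from the kidneys of CD1 mice, taken either in mid-gestation at E14.5 (3 libraries) or on the day of birth (P0, 3 libraries), with no transgene, deletion or drug named for either group. For each library, kidneys of 1 litter, up to 24 of them, were pooled, digested for 15 min with collagenase A and pancreatin to release cortical cells, and enriched with magnetic beads carrying antibody to Itga8, an integrin subunit of nephron progenitors. Total RNA went into single-end small RNA libraries, so each library is 1 litter pool and a p-value measures the spread between pools. The messenger RNAs that define nephron progenitors were not measured here, so the labelled cell type could not be checked against them.

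Nephron progenitors are the self-renewing mesenchymal cells that cap the ureteric bud tips and give rise to the epithelium of the nephron. In the mouse they are used up shortly after birth, so the stages set an early against a late point in the life of this population. Hox genes are ordered along their clusters by the body level at which they act, and the kidney arises at a posterior level. A miRNA recognises messenger RNAs mainly through its seed (bases 2 to 8), and miR-196 is known for pairing along nearly its whole length with a site in the 3′ UTR of Hoxb8. miR-615 is also processed from within a Hox cluster.

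The mature sequences are shown because the comparison turns on how closely the miRNAs are related. They are RefSeq sequences on GRCm38.p6, printed 5′ to 3′ with the seed in capitals.
miR-196a-5p: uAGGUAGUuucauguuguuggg
miR-196b-5p: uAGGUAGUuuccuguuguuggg
miR-615-3p: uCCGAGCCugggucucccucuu
Counted from the 5′ end, miR-196a-5p and miR-196b-5p differ at 1 of 22 bases, A12C, and share the seed AGGUAGU. Of the 885 miRNAs of the table that had a RefSeq sequence, no other one has that seed, and none has the seed of miR-615-3p. The same letters stand 1 base further in, at positions 3 to 9, in 7 of 10 let-7 guide strands, where they are not the seed.

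The hairpins of the miR-196 genes are shown because Mir196a-1 and Mir196a-2, which share their 5p arm, differ in their flanks and opposite arms. They are RefSeq hairpins on GRCm38.p6, 5′ to 3′, with both mature arms in capitals.
Mir196a-1: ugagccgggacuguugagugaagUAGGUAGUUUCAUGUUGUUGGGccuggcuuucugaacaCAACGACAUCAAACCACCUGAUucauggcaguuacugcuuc
Mir196a-2: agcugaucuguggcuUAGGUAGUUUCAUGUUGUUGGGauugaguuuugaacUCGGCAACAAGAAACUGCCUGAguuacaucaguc
Mir196b: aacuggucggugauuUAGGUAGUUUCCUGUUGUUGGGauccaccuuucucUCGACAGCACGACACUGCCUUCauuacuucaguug
The 5p arms of Mir196a-1 and Mir196a-2 are identical, and the first base after the arm, position 23 from its 5′ end, is the substitution C23A. The base before the arm also differs, with 0 identical flanking bases on either side.

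By the GENCODE M21 annotation of GRCm38, Mir196a-1 lies on the plus strand at chr11:96265164-96265265 in no annotated gene, 6192 bases from Hoxb9. Mir196a-2 lies on the plus strand at chr15:102973350-102973434, within an intron of 1 Hoxc5 transcript, 1457 bases from Hoxc10 and 3005 bases from Hoxc9. Mir196b lies on the minus strand at chr6:52230081-52230165, overlapping 3 Hoxa9 transcripts of the same strand and an annotated Hoxa9 exon, 1032 bases from Hoxa10. Mir615 lies on the plus strand of chromosome 15, with miR-615-3p at chr15:103014969-103014990, within an intron of 2 Hoxc5 transcripts, 3029 bases from Hoxc6 and 3933 bases from Hoxc4. The miR-196 genes therefore sit among the posterior Hox genes, whereas Mir615 sits between Hoxc6 and Hoxc4, nearer the middle of its cluster, so by position the word posterior covers miR-196 and not miR-615.

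The Hoxb8 site was searched for with these sequences because it is the textbook target of miR-196. The best antisense window of the Hoxb8 3′ UTR lies at chr11:96284888-96284909 on the plus strand (GRCm38, transcript Hoxb8-201) and is 22 bases long, printed with the part opposite the seed in capitals.
Hoxb8 3′ UTR window: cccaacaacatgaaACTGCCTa
Against miR-196a-5p it makes 21 Watson-Crick pairs and 1 G:U pair at position 5, with 0 unpaired bases. Against miR-196b-5p it makes 20 Watson-Crick pairs and 1 G:U pair, with 1 unpaired base at position 12, the base at which the miRNAs differ. Hoxb8 messenger RNA was not measured here.

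The 6 libraries held between 2649506 and 34934526 reads, recovered from the TPM values, and between 701 and 933 detected miRNAs. P0 replicates 2 and 3 had the fewest, 748 and 701, at 22263624 and 21508833 reads. E14.5 replicates 1, 2 and 3 had 821, 933 and 766, at 2649506, 23691028 and 5128723 reads, and P0 replicate 1 had 930 at 34934526. P0 replicate 1 stood apart from the other P0 libraries. Its root mean square log2 difference over the 670 tested miRNAs was 1.63 to 1.70 from P0 replicates 2 and 3 and 1.24 to 1.61 from the E14.5 libraries, against 0.797 between P0 replicates 2 and 3. The stage differences below are therefore given with and without it. Because it was singled out by these same data, p-values from fits without it do not allow for that choice. Those fits set only P0 replicates 2 and 3 against the E14.5 libraries. On the TPM scale the median log2 change of all tested miRNAs, P0 over E14.5, was -1.20, and after median-of-ratios scaling, which sets the typical miRNA equal between libraries, it was -0.17. A positive change on TPM is thus a change against a falling median, and both scales are given for the stage differences. Every list of miRNAs marking other cell types was detected in full, with no miRNA at 0 in any library. On TPM, whose median fell as given above, the summed level of every list but the kidney tubule one was lower in all P0 libraries than in all E14.5 libraries. The summed TPM of the 2 endothelial miRNAs was 26608 to 44921 at E14.5 and 5634 to 8158 at P0, and that of the 5 stromal or smooth muscle miRNAs was 83971 to 100537 and 33349 to 45658. The 5 ureteric epithelium miRNAs summed to 4122 to 23183 and 500.2 to 1542 TPM, the 4 erythroid miRNAs to 242 to 417 and 127 to 189, the 4 leukocyte miRNAs to 632 to 1202 and 454 to 629, and the 2 kidney tubule miRNAs to 537 to 1146 and 218 to 904, where P0 replicate 1, at 904, overlapped E14.5. These sums are given on TPM only. Median-of-ratios scaling divides TPM by 1.51, 1.47 and 1.71 for E14.5 and by 0.877, 0.528 and 0.567 for P0. A list that is lower at P0 on TPM may therefore not be lower after scaling. The part of these shifts on TPM in the results below was not tested, and in bulk RNA fewer cells of a type and less RNA per cell cannot be told apart.

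miR-196a-5p was the most abundant miRNA of the table in both P0 replicates 2 and 3, and ranked between 4 and 9 in the E14.5 libraries. Its Mir196a-2 row, which holds most of its reads, stood at 22892, 35879 and 37971 TPM for replicates 1, 2 and 3 of E14.5, and at 28012, 161118 and 171747 TPM for those of P0. P0 replicates 2 and 3 lay 4.24 and 4.52 times above the highest E14.5 library, whereas P0 replicate 1 lay within the E14.5 range, at 0.869 times the E14.5 mean, so the groups overlapped. As a share of recovered reads this row took 2.28% in E14.5 replicate 1 (95% Wilson interval 2.26 to 2.30) and 17.2% in P0 replicate 3 (17.1 to 17.2), an interval that covers counting error only. Since TPM sums to a fixed total, such a share lowers the TPM of every other miRNA in the library. With miR-196a-5p taken out of the total, the log2 change was 0.81 rather than 0.67 for miR-615-3p and 0.45 rather than 0.31 for miR-196b-5p.

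The mean of that row was 32247 ± 8169 TPM at E14.5 and 120292 ± 80094 TPM at P0 (SD, n = 3 each), a ratio of 3.73. In limma across the 670 miRNAs the log2 change was 1.55 (SE 0.62, 95% interval 0.21 to 2.88, Benjamini-Hochberg adjusted p = 0.0660), which missed the 0.05 threshold, and the exact two-sided permutation p was 0.3, where 0.1 is the smallest that 3 against 3 allows. The change ranked 16 of 670 from the top. After median-of-ratios scaling it was 2.83 (SE 0.79, 95% interval 1.08 to 4.59, adjusted p = 0.0470 in limma), which passed. On that scale all 3 P0 libraries were higher than all 3 E14.5 libraries, with 15142, 24420 and 22147 at E14.5 and 31940, 305146 and 302878 at P0. With any library other than P0 replicate 1 left out, the scaled change was 2.29 to 2.97 (adjusted p in limma from 0.0947 to 0.203), no longer past the threshold, in fits where 0 to 7 of 670 miRNAs passed. Without P0 replicate 1 the log2 change was 2.40 (SE 0.27, adjusted p = 3.52e-05 in limma) on TPM and 3.91 (adjusted p = 5.80e-05) after scaling.

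miR-196b-5p, the product of the Hoxa locus, had 22412, 24447 and 30317 TPM at E14.5 and 12766, 47658 and 52200 TPM at P0, replicates in the same order. As with miR-196a-5p, P0 replicates 2 and 3 were above every E14.5 library, by 1.57 and 1.72 times the highest. P0 replicate 1 went the other way and was the lowest of the 6 libraries, at 0.496 times the E14.5 mean. The group means were 25725 ± 4105 and 37541 ± 21576 TPM (SD, n = 3 each). The log2 change was 0.31 (SE 0.53, 95% interval -0.84 to 1.46, adjusted p = 0.642 in limma, exact permutation p = 0.8), so no stage difference passed the test on TPM. After median-of-ratios scaling it was 1.60 (SE 0.67, 95% interval 0.11 to 3.09, adjusted p = 0.129 in limma), with overlapping groups. Without P0 replicate 1 it was 0.97 (SE 0.25, adjusted p = 0.00565 in limma) on TPM and 2.48 (adjusted p = 1.48e-04) after scaling, both past the threshold. Without P0 replicate 3 it was -0.049 on TPM.

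miR-615-3p was less abundant, between rank 51 and rank 118 in its library. It had 576, 1840 and 1000.2 TPM at E14.5 and 2168, 1601 and 1227 TPM at P0. Here P0 replicate 1 was the highest of the 6 libraries, where it was the lowest for miR-196b-5p, and the groups overlapped through E14.5 replicate 2. The means were 1139 ± 643 and 1665 ± 474 TPM (SD, n = 3 each), with a log2 change of 0.67 (SE 0.55, 95% interval -0.52 to 1.86, adjusted p = 0.333 in limma, exact permutation p = 0.3). After median-of-ratios scaling the values were 381, 1252 and 583 at E14.5 and 2472, 3033 and 2163 at P0, with every P0 library higher. The scaled log2 change was 1.95 (SE 0.50, 95% interval 0.84 to 3.06, adjusted p = 0.0401 in limma). In the same fits with 1 library other than P0 replicate 1 left out, where 0 to 7 of 670 miRNAs passed, it was 1.56 to 2.42 (adjusted p in limma from 0.0506 to 0.200), not past the threshold. It also missed the threshold when values were corrected for the GC content of the miRNAs, at 1.14 (adjusted p = 0.140 in limma). Without P0 replicate 1 the log2 change was 0.46 (adjusted p = 0.364 in limma) on TPM and 1.97 (adjusted p = 0.00904) after scaling.

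**Figure D1:**
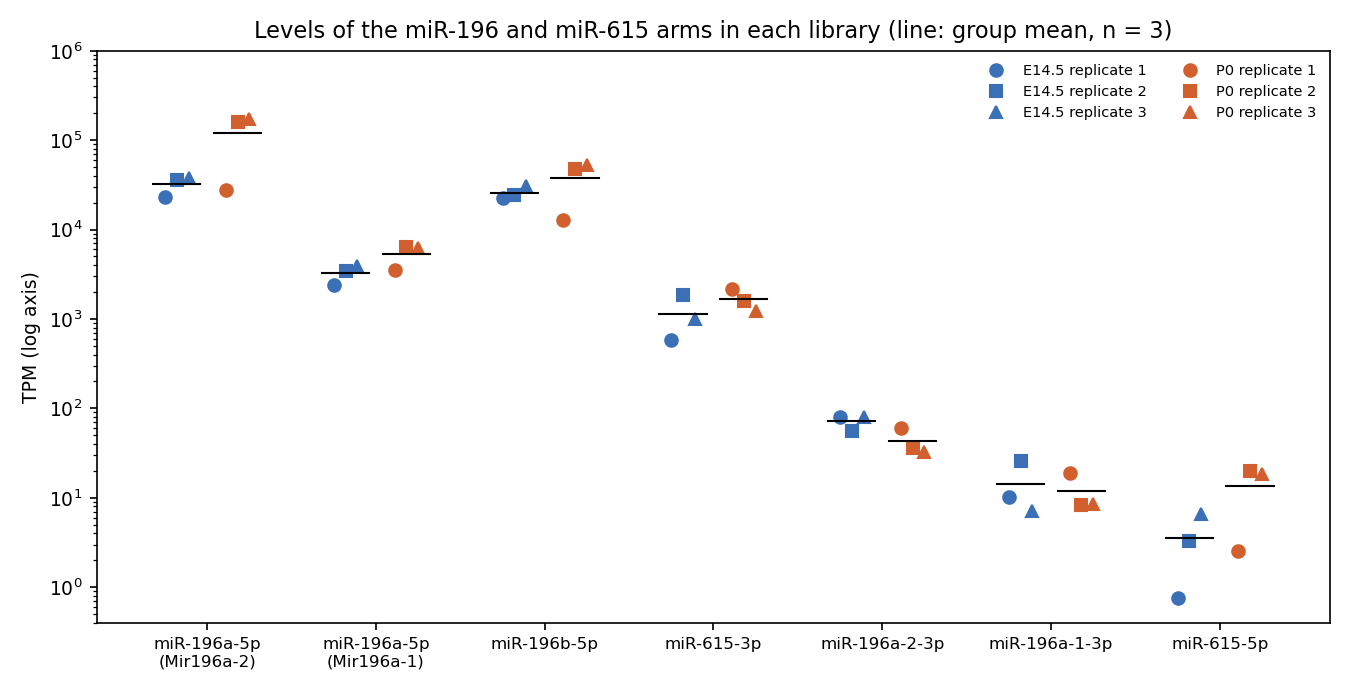
TPM (log axis) of the miR-196 and miR-615 arms in each library, with blue markers for E14.5, orange markers for P0, 1 marker shape per replicate and a line at each group mean (n = 3). P0 replicates 2 and 3 stand above E14.5 for both miR-196 5p miRNAs and for miR-615-5p, and P0 replicate 1 (orange circle) lies within or below the E14.5 range for the Mir196a-2 row of miR-196a-5p, for miR-196b-5p and for miR-615-5p. miR-196b-3p, which is listed at 0 in P0 replicate 3, is not drawn.

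Over the 3 miRNAs together, 0 passed limma on TPM (1 at an unadjusted p under 0.05, and 0 in limma-voom), where 34.2% of all tested miRNAs passed in either direction and 1.34% passed as higher at P0. After median-of-ratios scaling 2 of 3 passed, both higher at P0, where 10.9% of all tested miRNAs passed and 5.67% passed as higher. In limma-voom on recovered reads with that scaling, neither of these passed, with adjusted p = 0.0791 for miR-196a-5p and 0.0606 for miR-615-3p. Without P0 replicate 1, 2 of 3 passed on TPM, both higher, against 61.2% in either direction and 7.76% higher over all miRNAs, and 3 of 3 passed after scaling, against 22.2% higher. No member had P0 values that were all above E14.5 on TPM, which 3.13% of miRNAs had, and 2 of 3 had after scaling, which 15.8% had. The median log2 change of the 3 was 0.67 on TPM and 1.95 after scaling, beside -1.20 and -0.17 over all tested miRNAs.

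**Figure D2:**
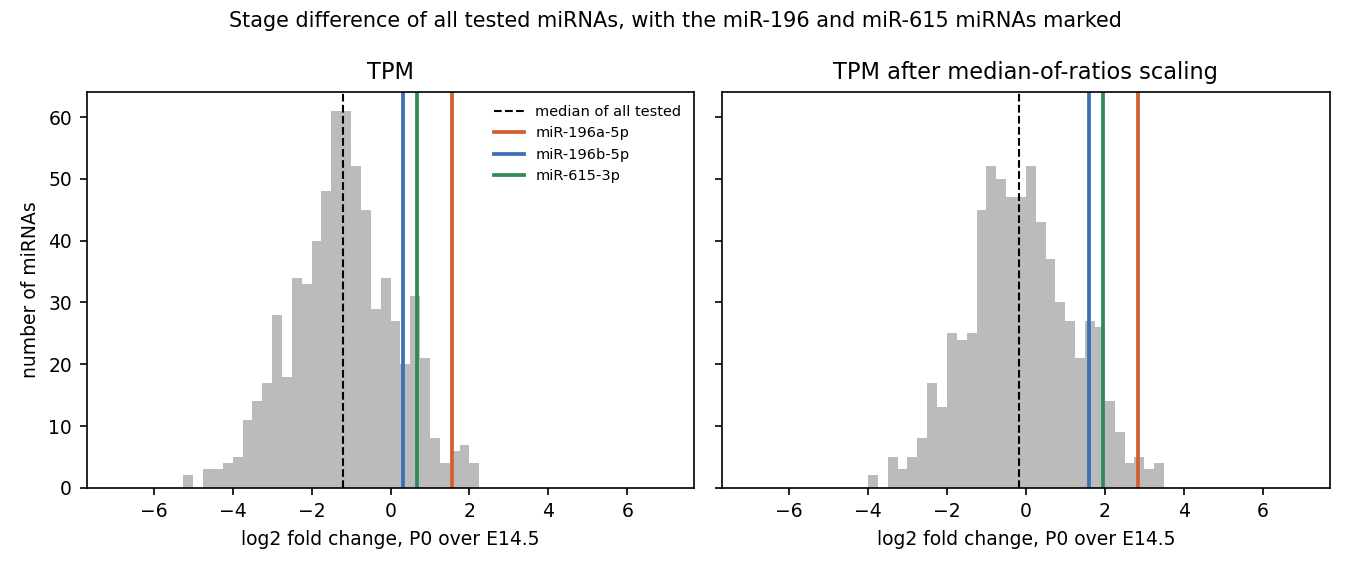
Histograms of the log2 change, P0 over E14.5, of the 670 tested miRNAs on TPM (left) and after median-of-ratios scaling (right). The vertical axis is the number of miRNAs, the dashed line is the median of all tested and the coloured lines are miR-196a-5p, miR-196b-5p and miR-615-3p, at 1.55, 0.31 and 0.67 on the left and 2.83, 1.60 and 1.95 on the right, all above the median.

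A ratio of 2 miRNAs within a library does not depend on how libraries are scaled, and by this measure miR-196a-5p stood higher against miR-196b-5p in every P0 library, P0 replicate 1 included, than in any E14.5 library. The ratio of the Mir196a-2 row of miR-196a-5p to miR-196b-5p was 1.02, 1.47 and 1.25 at E14.5, against 2.19, 3.38 and 3.29 at P0. The groups did not overlap. The mean log2 ratio differed by 1.23, a 2.35-fold difference (exact permutation p = 0.1, the smallest possible with 3 against 3). Over the 7 within-library ratios tested its Benjamini-Hochberg adjusted p was 0.467, from the same exact permutation test, so the design could not take it past the threshold. The log2 difference was 1.19 with the copies of miR-196a-5p summed and between 1.10 and 1.43 with any 1 library left out, the latter without P0 replicate 1. Of 537 miRNAs with reads in every library, 2.98% had a ratio to miR-196b-5p that was higher in every P0 library.

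Because miR-196a-5p and miR-196b-5p share a seed, their sum describes the pool of that seed. It made up 4.53%, 6.03% and 6.83% of TPM at E14.5 and 4.08%, 20.9% and 22.4% at P0. P0 replicates 2 and 3 were again above E14.5 and P0 replicate 1 below it. Within the pool with both rows, miR-196a-5p made up 53.0%, 61.6% and 58.0% at E14.5 and 71.2%, 77.8% and 77.3% at P0. The groups had no overlap, which restates the ratio above with the copies summed. miR-615-3p, which has another seed, stood to miR-196a-5p at 0.0252, 0.0513 and 0.0263 at E14.5 and at 0.0774, 0.00994 and 0.00714 at P0. Its lowest and highest ratios were both at P0 (log2 difference -0.88, exact permutation p = 0.5; -1.94 without P0 replicate 1).

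The rows of miR-196a-5p, 1 per gene, can be set side by side because they were not identical. The Mir196a-1 row on chromosome 11 had 2425, 3405 and 3918 TPM at E14.5 and 3557, 6336 and 6277 TPM at P0, below the Mir196a-2 row in every library. The ratio of the Mir196a-2 row to the Mir196a-1 row was 9.44, 10.5 and 9.69 at E14.5, a narrow range, and 7.87, 25.4 and 27.4 at P0. P0 replicates 2 and 3 were far above E14.5 and P0 replicate 1 was the lowest of all (log2 difference 0.84, exact permutation p = 0.4; 1.42 without P0 replicate 1). Since the mature sequences are identical, a read can be given to a gene only through bases beyond the 5p arm or by a counting rule, and how reads matching both genes were treated is not given in the sources used here. The rows therefore may not measure the output of each gene. Over all miRNAs with several rows, 4 of 52 had identical rows, and of 44 with exactly 2 rows 33 had totals within a factor of 2, whereas the totals of the miR-196a-5p rows differed 17.7-fold.

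**Figure D3:**
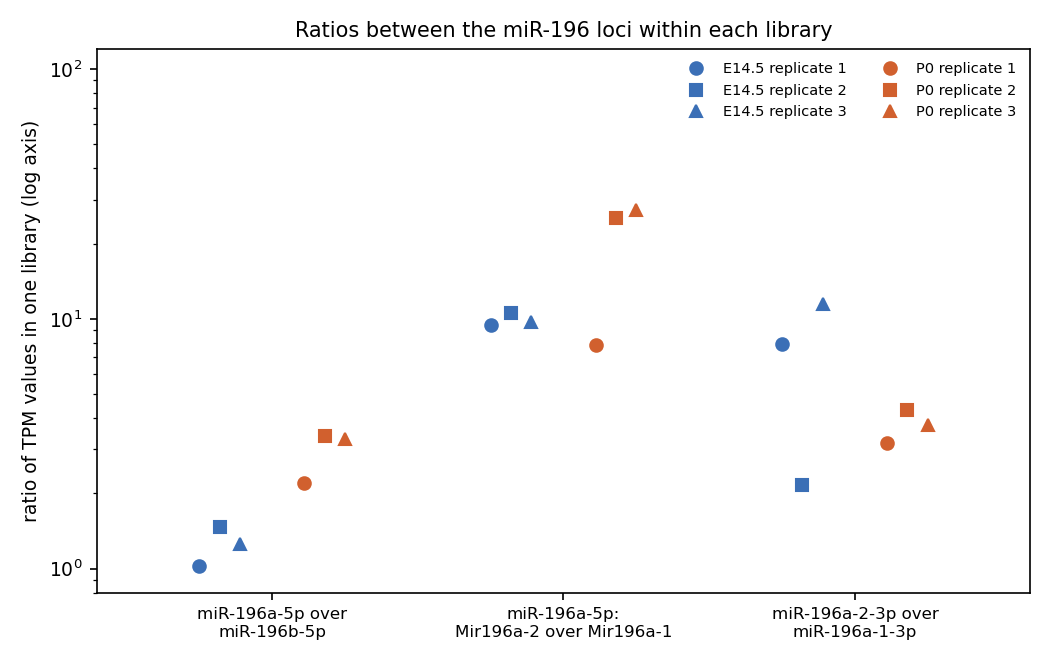
Ratios of TPM values within each library (log axis) for miR-196a-5p over miR-196b-5p, the Mir196a-2 row over the Mir196a-1 row of miR-196a-5p, and miR-196a-2-3p over miR-196a-1-3p, with blue markers for E14.5, orange for P0 and 1 marker shape per replicate. Only the first ratio separates all P0 libraries (2.19 to 3.38) from all E14.5 libraries (1.02 to 1.47).

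The opposite arms of the hairpins, which are usually degraded after processing, were present at a small fraction of the abundant arms. miR-196a-2-3p had 81.0, 55.9 and 81.1 TPM at E14.5 and 61.1, 35.9 and 32.4 TPM at P0, and miR-196a-1-3p had 10.2, 26.0 and 7.05 TPM at E14.5 and 19.1, 8.28 and 8.61 TPM at P0. On TPM, P0 replicates 2 and 3 held the lowest values of miR-196a-2-3p and the highest of its 5p arm, whereas after median-of-ratios scaling miR-196a-2-3p was at 53.6, 38.0 and 47.3 at E14.5 and at 69.6, 67.9 and 57.1 at P0, with every P0 library higher. The 3p arms, unlike the 5p arm, have different sequences and so tell the miR-196a genes apart. Their ratio, miR-196a-2-3p over miR-196a-1-3p, was 7.93, 2.15 and 11.5 at E14.5 and 3.19, 4.33 and 3.76 at P0 (log2 difference -0.64, exact permutation p = 0.4; -0.53 without P0 replicate 1). The high row ratios of P0 replicates 2 and 3 thus had no counterpart in the ratio of the 3p arms, whose E14.5 values rest on as few as 27 reads of miR-196a-1-3p.

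miR-196b-3p had 40.1, 28.2 and 34.8 TPM at E14.5 and 50.3, 6.93 and 0 TPM at P0. The 3-read floor of P0 replicate 3 was 0.140 TPM, and miR-196b-3p was 1 of 2 miRNAs listed at 0 there among 398 with at least 5 TPM in P0 replicate 2, so it is given only as listed at 0. miR-615-5p went the other way, with 0.757, 3.31 and 6.66 TPM at E14.5 and 2.56, 20.1 and 18.4 TPM at P0. Its E14.5 values rest on 2, 78 and 34 reads, and P0 replicates 2 and 3 on 447 and 396.

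The balance of arms within each hairpin followed from these values. For Mir196a-2 the 5p arm exceeded the 3p arm 283, 642 and 468 times at E14.5 and 459, 4492 and 5301 times at P0 (log2 difference 2.34, exact permutation p = 0.3; 3.47 without P0 replicate 1). For Mir196a-1 the ratios were 237, 131 and 556 at E14.5 and 186, 765 and 729 at P0 (log2 difference 0.86, exact permutation p = 0.3; 1.53 without P0 replicate 1). For Mir196b they were 558, 868 and 870 at E14.5 and 254 and 6876 in P0 replicates 1 and 2, with no ratio given for P0 replicate 3. Mir196a-1 and Mir196a-2 thus had their highest 5p to 3p ratios in P0 replicates 2 and 3, and Mir196b had its highest given ratio in P0 replicate 2. P0 replicate 1 again lay within or below the E14.5 range for all 3 miR-196 hairpins. For Mir615, whose 3p arm is the abundant one, the ratio of the abundant to the opposite arm was lowest rather than highest in P0 replicates 2 and 3, so that in these libraries, as for Mir196a-1 and Mir196a-2, the 5p to 3p ratio was highest. Its 3p to 5p ratio was 761, 556 and 150 at E14.5 and 847, 79.6 and 66.5 at P0 (log2 difference -1.27, exact permutation p = 0.4; -2.45 without P0 replicate 1).

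None of these arm differences passed a test with all 6 libraries. In limma over the 251 hairpins with both arms measured, 0 passed (71 at an unadjusted p under 0.05), and the adjusted p was 0.180 for Mir196a-2, 0.326 for Mir196b, 0.433 for Mir196a-1 and 0.523 for Mir615. Without P0 replicate 1, 109 of 251 passed, 43.4%, with the ratio of the more abundant arm higher at P0 in 53 and lower in 56. There the log2 change was 3.45 for Mir196a-2 (adjusted p = 0.00284 in limma) and -1.93 for Mir615 (adjusted p = 0.0406), and Mir196a-1 did not pass (adjusted p = 0.0944). Mir196b also passed (adjusted p = 0.0104 in limma), with a fitted size that depends on the pseudocount because of the 0. A change of arm balance was thus common over hairpins once that library was left out.

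**Figure D4:**
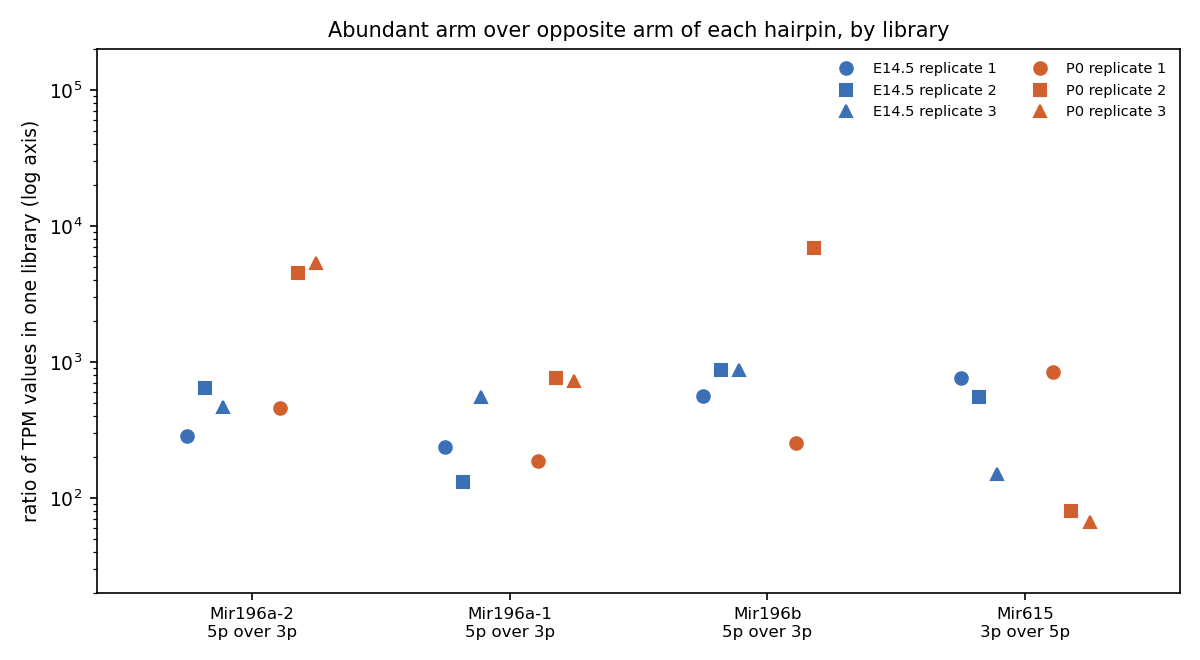
Ratio of the abundant arm to the opposite arm within each library (log axis) for the 4 hairpins, with blue markers for E14.5, orange for P0 and 1 marker shape per replicate. P0 replicates 2 and 3 lie above E14.5 for Mir196a-2 and below it for Mir615, P0 replicate 1 lies apart from them in every hairpin, and P0 replicate 3 of Mir196b is not drawn because the opposite arm is listed at 0.

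The other mature miRNAs of the Hox clusters had mostly negative changes on TPM. They number 8: the opposite arms above and both arms of miR-10a and miR-10b, which lie in the Hoxb and Hoxd clusters. In limma 0 of 8 passed on TPM (0 at an unadjusted p under 0.05, 0 in limma-voom, smallest adjusted p = 0.112), where 34.2% of all tested miRNAs passed. Of the 8, 7 had a negative and 1 a positive log2 change, and the median was -0.76, beside -1.20 over all tested miRNAs. After median-of-ratios scaling 0 of 8 passed (2 at an unadjusted p under 0.05, 0 in limma-voom, smallest adjusted p = 0.0789 in limma), where 10.9% of all tested miRNAs passed. On that scale 7 had a positive and 1 a negative change, and the median was 0.51, beside -0.17, so the direction of most of them depends on the scaling. Without P0 replicate 1, 6 of 8 passed on TPM, 5 lower and 1 higher at P0, where 61.2% of all miRNAs passed. The 5 include miR-196b-3p, whose call rests on the value listed at 0. After scaling without P0 replicate 1, 3 of 8 passed, where 48.7% of all miRNAs passed: miR-10a-3p and miR-615-5p were higher at P0, and miR-196b-3p, again with the value listed at 0, was lower.

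miR-10a-5p, from the Hoxb cluster, had 18228, 34282 and 20637 TPM at E14.5 and 26546, 8606 and 7899 TPM at P0. miR-10b-5p, from the Hoxd cluster, had 9074, 17113 and 11051 TPM at E14.5 and 12567, 3505 and 3455 TPM at P0. Both were lowest in P0 replicates 2 and 3, the libraries in which miR-196a-5p and miR-196b-5p were highest, while P0 replicate 1 kept an E14.5 level. In limma the log2 change on TPM was -0.95 (adjusted p = 0.161) for miR-10a-5p and -1.16 (adjusted p = 0.112) for miR-10b-5p, and without P0 replicate 1 -1.51 (adjusted p = 0.00124) and -1.78 (adjusted p = 4.17e-04). After scaling the changes were 0.34 and 0.12, and without P0 replicate 1 0.0050 and -0.27, none past the threshold. The opposite arm miR-615-5p had the highest change of the 8, at 1.55 on TPM (adjusted p = 0.133 in limma) and 2.58 after scaling (adjusted p = 0.0789), neither past the threshold. It passed on both scales without P0 replicate 1, at 2.39 (adjusted p = 0.00791 in limma) and 3.65 (adjusted p = 0.00158). With values of all libraries corrected for GC content, which is 77.3% in miR-615-5p, it was at 1.45 (adjusted p = 0.142 in limma), not past the threshold.

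By the smallest root mean square difference of log2(TPM + 1) over the 6 libraries, each profile centred on its own mean, the miRNAs nearest to miR-196a-5p among 431 compared were miR-5121 at 0.234, miR-671-3p at 0.295 and miR-1306-5p at 0.319. miR-5121, for example, had 2414, 4213 and 4225 TPM at E14.5 and 2953, 25980 and 16737 TPM at P0, again with P0 replicate 1 at an E14.5 level. miR-196b-5p was only 24th in that order, at 0.666. The nearest to miR-196b-5p were miR-224-5p at 0.243, miR-486b-5p at 0.278 and miR-381-3p at 0.290. The nearest to miR-615-3p were miR-700-3p at 0.131, let-7e-5p at 0.279 and miR-532-3p at 0.301, with miR-196b-5p at position 133 and miR-196a-5p at position 190. miR-700-3p had 17.9, 45.5 and 31.5 TPM at E14.5 and 63.0, 45.3 and 32.5 TPM at P0, low in E14.5 replicate 1 and high in P0 replicate 1 like miR-615-3p. miR-615-3p, though also a Hox-cluster miRNA, was thus not among the nearest profiles of either miR-196 miRNA, and likeness over 6 libraries is a description that also reflects the library they share.

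The authors' deposited table gave its own changes, from DESeq2 per the submitters' processing notes, with a sign that matches P0 over E14.5. The log2 change there was 3.09 (SE 0.73, adjusted p = 8.20e-04) for the Mir196a-2 row of miR-196a-5p and 2.06 (SE 0.62, adjusted p = 0.0114) for the Mir196a-1 row. In the authors' deposited table miR-196b-5p was at 1.90 (SE 0.66, adjusted p = 0.0311), and miR-615-3p was at 1.40 (SE 0.62, adjusted p = 0.103), past and not past 0.05. By the authors' deposited table miR-615-5p was at 3.20 (adjusted p = 0.0157), whereas miR-10a-5p at -0.12 (adjusted p = 0.916) and miR-10b-5p at -0.31 (adjusted p = 0.741) were near 0. The changes of the abundant arms in the authors' deposited table thus lay closer to the median-of-ratios values above than to those on TPM.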

How the data were processed

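Small RNA libraries of 3 E14.5 and 3 P0 litter pools were analysed from 1 deposited table. The authors deposited TPM per library and mature miRNA row, with a mean normalised signal (baseMean), a log2 fold change with its log2 SE, a test score, and raw and adjusted p-values, per the file headers. The submitters' processing notes name featureCounts, DESeq2 1.26.0 and build mm10. Trimming, aligner, molecular tags and the treatment of reads matching several genes are not given in the sources used here. TPM times row length was a whole multiple of 1 step per library in 100% of values (tolerance 0.001 of a read), which gave recovered reads and a 3-read floor. Where a miRNA had several rows, that with the largest sum entered the tests. limma 3.58.1 (R 4.3.3, trend) was run on log2(TPM + 1) for the 670 miRNAs averaging 1 TPM or more, two-sided, with Benjamini-Hochberg adjustment and a threshold of 0.05, and was tested on simulated data. Single ratios were tested by exact permutation over samples. Arm ratios were run through limma without a trend, chosen after seeing the data. Alternatives were other scalings, limma-voom on recovered reads, filters, pseudocount 0.1, summed rows, a replicate block and each library left out. A GC correction (sequences for 85.6% of miRNAs) and scaled limma-voom were added after seeing the data. Named were the 3 miRNAs, the 8 other Hox-cluster miRNAs and the 3 nearest profiles of each. These members and lists were chosen with earlier results of these data known.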

Additional observations from a re-analysis of the deposited data

How the results depend on the processing

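The number of miRNAs passing limma was 229 on TPM, 73 after median-of-ratios scaling, 58 after upper-quartile scaling, 63 with the GC correction and 28 in scaled limma-voom. With 1 library left out it ranged from 66 to 410 on TPM and from 0 to 326 after scaling. It lay between 173 and 224 with the total without miR-196a-5p, limma-voom, no filter, the 10 TPM filter, pseudocount 0.1 or summed rows, with no call changed for miR-196b-5p and miR-615-3p, nor for miR-196a-5p, which was not run with the total without itself. miR-196a-5p (1.55 on TPM) was at 2.83 after scaling and 3.13 with the GC correction (adjusted p = 0.0387 in limma), both called, and at 2.85 with upper-quartile scaling (0.0545), not called. Leaving out 1 library gave 1.09 to 2.40 on TPM and 2.29 to 3.91 after scaling. miR-196b-5p ranged from -0.049 (without P0 replicate 3) to 0.97 and from 1.15 to 2.48, and miR-615-3p from 0.26 to 1.09 and from 1.56 to 2.42. miR-615-3p was called at 1.95 after scaling and at 1.97 with upper-quartile scaling. Of 251 arm pairs, 0 were called with all libraries and 109 without P0 replicate 1.

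Scaling turned the direction of 6 of the 8 other Hox-cluster miRNAs. In the order median-of-ratios, upper quartile, GC correction and scaled limma-voom, the log2 change was 0.34, 0.35, 0.51 and 0.33 for miR-10a-5p, 1.12, 1.13, 1.66 and 1.10 for miR-10a-3p, 0.12, 0.14, 0.29 and 0.11 for miR-10b-5p, 0.53, 0.54, 0.83 and 0.53 for miR-10b-3p, 1.02, 1.03, 1.20 and 0.83 for miR-196a-1-3p, and 0.49, 0.50, 0.34 and 0.53 for miR-196a-2-3p. With 1 library left out, over both scales, it ranged from -1.51 to 0.66, -0.58 to 1.39, -1.78 to 0.42, -1.25 to 0.73, -0.52 to 1.54 and -1.05 to 0.60 in the same order, and from -3.64 to 0.33 for miR-196b-3p. Calls among the 8 ranged from 0 to 6 with 1 library left out and numbered 1 with the GC correction (miR-10a-3p, named after its values were seen).

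Same-numbered libraries of the 2 stages had correlated deviations of 0.193, 0.183 and 0.0423, against -0.182 to 0.0770 for other numbers. These values do not settle whether the numbers pair the libraries, and no label says that they do. With that number as a replicate block, 247 miRNAs were called on TPM, 67 after scaling and 72 with the GC correction. miR-196a-5p was then called on all 3 scales, at 1.55, 2.83 and 3.13 (adjusted p = 0.0223, 0.0361 and 0.0182 in limma), miR-615-3p at 1.95 after scaling (0.0361), and of the 8 other Hox-cluster miRNAs 1 was called after scaling, miR-615-5p (adjusted p = 0.0499), and another 1 with the GC correction, miR-10a-3p (0.0371). The block gave 0 called arm pairs. Each E14.5 library, but not P0 replicate 3, correlated best with its own number, a hint from the data and not from the design. Where no cause is named, the cause was not tested. Depth limits miR-615-5p and miR-196a-1-3p, with 2 and 27 reads in E14.5 replicate 1, and not the abundant arms.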
